A study of Mus musculus with 39 samples.

Results

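The pro-apoptotic side of the BCL-2 family was followed in tissues of perforin-deficient mice that were young, old and treated with vehicle, or old and treated with ABT-737, a BH3 mimetic that binds the anti-apoptotic proteins BCL-2, BCL-XL and BCL-W. The 10 members were taken by gene symbol: the effectors Bax, Bak1 and Bok, and the BH3-only genes Bad, Bid, Bik, Bmf, Bcl2l11, Bbc3 and Pmaip1. All 10 had a row in the deposited table of kidney, liver and lung, which holds 24537 genes, and in the separate table of skin, which holds 52508.

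BAX and BAK1 are the proteins that, once activated, assemble in the outer mitochondrial membrane and release cytochrome c, which starts the caspase cascade. BH3-only proteins sense damage or lost survival signals and carry that message to them, either by binding the effectors directly or by occupying the anti-apoptotic proteins that hold the effectors in check. BH3 mimetics such as ABT-737 copy this second action at the protein level and are used against senescent cells, which lean on anti-apoptotic proteins to survive.

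Kidney, liver, lung and skin came from C57BL/6 males, and every library carried the Prf1-/- genotype, the young controls included, so no wild-type library entered. Young mice were untreated and 3 months old, with 4 libraries a tissue and 3 in skin. Old mice were 20 months old and had received, from 18 months and over 2 months, either ABT-737 at 25 mg/kg or a DMSO-based vehicle on 2 consecutive days each month, with 3 libraries a group and tissue, numbered 3, 4 and 5. In every tissue the treatment label of the drug library numbered 4 reads ABT-738 and that of number 5 reads ABT-739. Their titles and sources name the same group as number 3, and they were kept in it. Young and vehicle mice differ in age and in injection together, so those causes cannot be told apart. The labels call the libraries biological replicates without tying them to animals, so that p-values measure the spread between these libraries. Whole perfused tissue was sequenced in bulk from 3′ ends, and fewer cells of a type and less RNA per cell therefore cannot be told apart.

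Totals of the 39 libraries lay between 1046508 and 3842808 counts in kidney, lung and skin, and were lower in liver, at 223957 to 891116 with a median of 547867. Markers of the labelled tissue were high throughout, with summed levels of 10169 CPM (counts scaled to a library total of 1000000) or more for 6 kidney tubule genes, 47276 or more for 6 hepatocyte genes, 27766 or more for 6 lung epithelial genes and 10059 or more for 6 keratinocyte genes. Skin also carried skeletal muscle, with 6 genes summing to 53246 to 75255 CPM in young, 8688 to 38236 in vehicle and 13859 to 42613 in ABT-737 libraries. Prf1 still gave up to 68 counts in a lung library and 169 in a skin library. The sources used here do not say which part of the gene is missing, so counts at its 3′ end are no check of the genotype. Summed leukocyte markers (Ptprc, Laptm5, Coro1a, Cd52, Cd53 and Lcp1) were higher in vehicle than in young libraries without overlap in all 4 tissues, and ABT-737 libraries overlapped the young in liver, lung and skin and the vehicle in lung: 82.8 to 106 CPM in young, 324 to 538 in vehicle and 138 to 198 in ABT-737 kidney, 87.9 to 111, 407 to 864 and 92.9 to 131 in liver, 647 to 916, 2018 to 5469 and 810 to 2219 in lung, and 55.7 to 134, 335 to 744 and 98.7 to 205 in skin. The vehicle lung library numbered 5 had the 5469 CPM, ABT-737 lung library 3 had 48078 CPM of 6 red-cell genes, and ABT-737 lung library 4 had 5474 CPM of 6 adipocyte genes.

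What makes these genes a family is the BH3 domain, a short helix that fits into the groove of BCL-2-like proteins and that ABT-737 imitates. Its core is a leucine, any 3 residues, a small residue and an aspartate. That pattern was found exactly 1 time in the coding sequence of each of the 9 members whose sequence is shown, read from GENCODE M21 transcripts on GRCm38. The stretches of 18 codons around it are given below in the direction of transcription, with the codons of the leucine, the small residue and the aspartate in capitals, because they show what the effectors and the BH3-only genes share. All lie in coding exons, 8 of the 9 within a single exon and that of Bok across an intron.
Bax (chr7:45465988-45466041, minus strand): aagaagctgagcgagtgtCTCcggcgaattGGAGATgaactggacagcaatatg
Bak1 (chr17:27022522-27022575, minus strand): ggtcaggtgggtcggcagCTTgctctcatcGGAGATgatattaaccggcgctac
Bok (chr1:93686639-93689179, plus strand): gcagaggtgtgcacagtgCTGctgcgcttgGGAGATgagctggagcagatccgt
Bad (chr19:6950774-6950827, plus strand): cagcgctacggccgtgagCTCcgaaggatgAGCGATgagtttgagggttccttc
Bid (chr6:120897280-120897333, minus strand): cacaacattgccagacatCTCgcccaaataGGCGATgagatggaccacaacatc
Bik (chr15:83543066-83543119, plus strand): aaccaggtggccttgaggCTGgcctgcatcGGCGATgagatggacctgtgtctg
Bmf (chr2:118545091-118545144, minus strand): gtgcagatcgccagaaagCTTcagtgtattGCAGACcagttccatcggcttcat
Bcl2l11 (chr2:128147132-128147185, plus strand): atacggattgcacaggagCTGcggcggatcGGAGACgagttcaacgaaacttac
Bbc3 (chr7:16313755-16313808, plus strand): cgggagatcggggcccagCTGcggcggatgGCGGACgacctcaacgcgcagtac
The small residue is encoded by GGA or GGC, both glycine codons, in 6 of the 9 genes, including all 3 effectors. It is serine in Bad and alanine in Bmf and Bbc3.

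Age came first among the comparisons, since the vehicle mice show the tissues that the drug was given to change. A member was called when edgeR's quasi-likelihood test gave a Benjamini-Hochberg adjusted p under 0.05 over all genes of that tissue. In liver, 3 of the 6 members tested rose from young to vehicle (Bax, Bak1 and Bok), where 11.7% of all 5583 genes tested were called higher and 22.6% were called in either direction. In kidney, 1 of 10 rose (Bbc3), against 7.75% of genes called higher and 13.3% called in all. None of the 10 passed in lung or in skin by edgeR, where 12.9% and 11.2% of genes were called. At an unadjusted p under 0.05 the counts were 3 of 10 in lung and 2 of 10 in skin, all higher in vehicle, beside 29.8% and 31.8% of all genes in either direction, and DESeq2 called 1 in lung (Bid) and 0 in skin. No member fell. The median log2 fold change of the members tested was 0.29 (kidney), 0.66 (liver), 0.43 (lung) and 0.50 (skin), beside 0.01, 0.02, 0.04 and 0.05 for all genes. The 4 liver members that failed the filter on low counts were Bmf, Bcl2l11, Bbc3 and Pmaip1. Bak1 and Bok had at most 11 and 8 counts in a young liver and passed that filter through old libraries, where they were higher. So did Bbc3 in kidney, at 7 to 14 counts in a young library, and in skin Bid at 1 to 18 and Pmaip1 at 2. The 3 liver calls, the liver median and the 6 liver members tested here and later thus depend in part on that filter. The same holds for the kidney call and for the medians of kidney and skin.

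**Figure D1:**
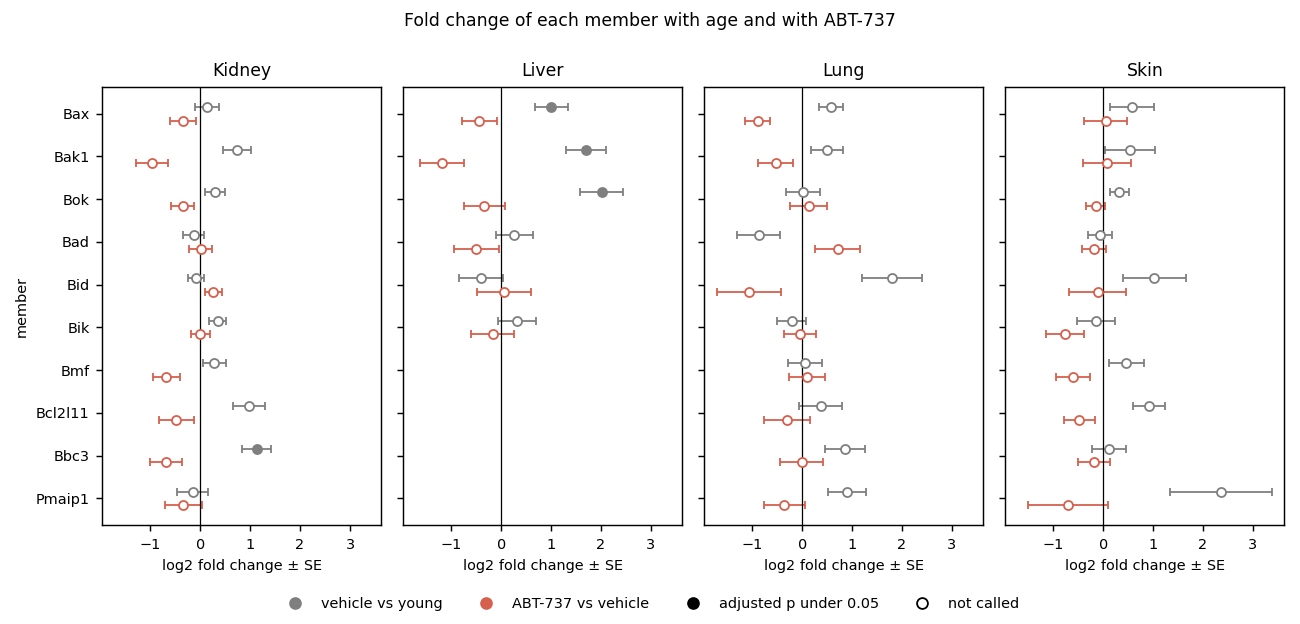
Log2 fold changes ± SE of the 10 members (rows) in each tissue (panels), from vehicle against young (grey) and ABT-737 against vehicle (red), with filled points for adjusted p under 0.05; 4 members were not tested in liver. The 4 filled points are Bax, Bak1 and Bok in liver and Bbc3 in kidney, all for age, and no red point is filled.

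The calls in liver were the 3 effectors. BAK1 sits in the mitochondrial membrane of healthy cells, and its transcript stood at 9.68, 16.4, 6.14 and 15.3 CPM in the young livers, at 61.1, 32.8 and 34.7 in vehicle, and at 11.9, 11.4 and 27.2 in ABT-737. Each vehicle library was above every young and every ABT-737 library. The rise with age was 1.70 ± 0.40 on the log2 scale (SE, adjusted p = 0.00638), 3.24-fold, and the call held without any 1 library. With the replicate number as a block that call was lost (adjusted p = 0.111). Bok, an effector-like member whose protein is kept low by degradation, stood at 7.74, 11.9, 4.61 and 9.59 CPM in young liver and at 34.9, 37.5 and 32.1 in vehicle. Its rise was 2.01 ± 0.43 (adjusted p = 0.00366), 4.03-fold, again with no overlap and again held without any 1 library. Bax, which waits in the cytosol until activated, stood at 34.9, 53.6, 35.3 and 49.9 CPM in young and at 56.7, 123 and 70.6 in vehicle liver. That rise was 1.004 ± 0.329 on the log2 scale (adjusted p = 0.0378). It missed the threshold without vehicle library 4 or without any 1 of the 4 young libraries (adjusted p = 0.0503 to 0.259), in DESeq2 and with the block. Depth limits these values, with 13 to 105 counts of Bax, 14 to 28 of Bak1 and 8 to 32 of Bok in the vehicle livers. Groups did not overlap for 3 of the 6 members, all higher in vehicle, as did 16% of all genes in that direction. Bak1 and Bok among them passed the filter through old libraries, as given above.

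Macrophage, leukocyte and red-cell markers moved with this result. Macrophage and monocyte genes summed to 261 to 363 CPM in young, 1410 to 1627 in vehicle and 211 to 441 in ABT-737 liver, and hepatocyte genes to 67419 to 82118 in young and 47276 to 69297 in vehicle liver. Red-cell genes summed to 396 to 1113 CPM in young and 2725 to 3312 in vehicle liver, with 4 of 5 tested called higher. Their part in the change of the effectors was not tested. Bak1 lies inside Ggnbp1, a gene on the opposite strand, and the sources used here do not say whether the counting kept strand, so reads from the pair cannot be told apart. Bax overlaps Gm45808 on its own strand, and the same limit holds for Bad with Gpr137, Bid with Gm44260 and Gm17812, and Bik with Gm46495. In the longer windows of the skin table, Bid also overlaps Bcl2l13 (1989 bases) and Bad overlaps Plcb3 (1574 bases), both on the opposite strand.

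**Figure D2:**
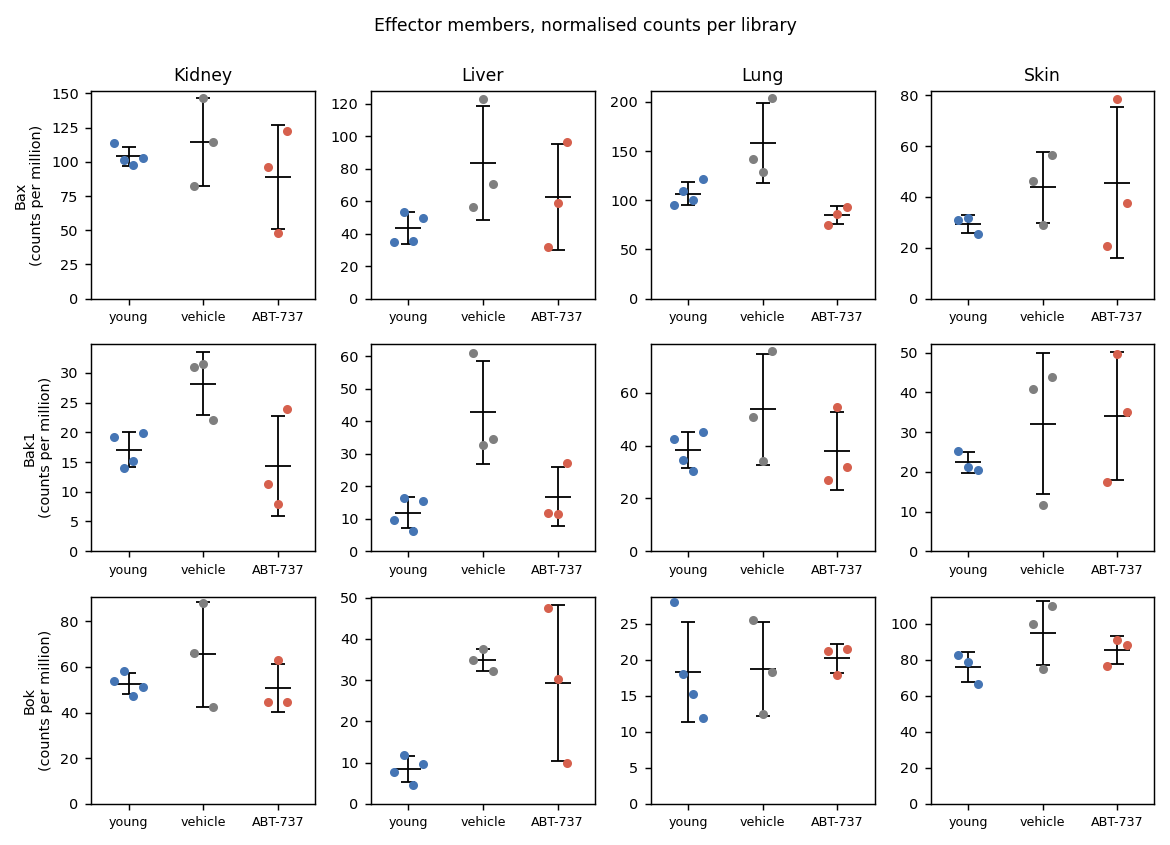
Bax, Bak1 and Bok (rows) in CPM for each library (points) of kidney, liver, lung and skin (columns) by group, with mean ± SD as black bars (n = 3 or 4 libraries a group). All vehicle livers lie above all young livers for each gene, and all 3 ABT-737 lungs lie below the vehicle lungs for Bax.

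No effector was called with age outside liver. In kidney, Bak1 was at 19.3, 14.1, 15.2 and 19.8 CPM in young and 31.0, 31.5 and 22.1 in vehicle, with no overlap and a log2 fold change of 0.73 ± 0.27 that missed the threshold (adjusted p = 0.0885). In lung, Bax was at 95.6, 109, 99.8 and 122 CPM in young and 142, 129 and 204 in vehicle, again without overlap, at 0.57 ± 0.24 (adjusted p = 0.12). Not called either were kidney Bax (0.13 ± 0.24), kidney Bok (0.30 ± 0.21), lung Bak1 (0.49 ± 0.32) and lung Bok (0.02 ± 0.35). In skin the 3 effectors had log2 fold changes of 0.58 ± 0.44, 0.53 ± 0.50 and 0.32 ± 0.19 for Bax, Bak1 and Bok. Vehicle skin library 4 was the lowest of its group for each of the 3, with Bak1 at 11.7 CPM against 40.9 and 43.9 in the other two.

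The 4 members called with age have the following promoters in RefSeq (GRCm38.p6). For Bbc3, which has 3 entries there, the one at the start of the deposited gene is shown. Each window runs from 250 bases before to 50 after the annotated start, in the direction of transcription. They are shown because 3 of these genes rose together in liver and because Bax and Bbc3 are textbook targets of p53. Capitals mark GGGCGG or its complement CCGCCC, and in Bax also 1 match to the p53 decamer, the unit that a p53 response element repeats.
Bax (chr7:45466849-45467148, minus strand): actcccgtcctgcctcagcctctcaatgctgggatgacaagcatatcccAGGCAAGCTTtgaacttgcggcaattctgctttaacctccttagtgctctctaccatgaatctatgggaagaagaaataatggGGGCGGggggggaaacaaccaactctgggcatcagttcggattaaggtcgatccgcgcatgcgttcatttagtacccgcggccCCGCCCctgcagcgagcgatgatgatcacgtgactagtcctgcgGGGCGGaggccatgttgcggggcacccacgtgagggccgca
Bak1 (chr17:27028578-27028877, minus strand): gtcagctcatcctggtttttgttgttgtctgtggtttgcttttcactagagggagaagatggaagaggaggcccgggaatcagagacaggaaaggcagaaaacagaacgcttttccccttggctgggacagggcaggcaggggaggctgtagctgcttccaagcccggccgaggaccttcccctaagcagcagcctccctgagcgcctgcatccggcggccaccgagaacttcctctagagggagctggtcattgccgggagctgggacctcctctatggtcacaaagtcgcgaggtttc
Bok (chr1:93685325-93685624, plus strand): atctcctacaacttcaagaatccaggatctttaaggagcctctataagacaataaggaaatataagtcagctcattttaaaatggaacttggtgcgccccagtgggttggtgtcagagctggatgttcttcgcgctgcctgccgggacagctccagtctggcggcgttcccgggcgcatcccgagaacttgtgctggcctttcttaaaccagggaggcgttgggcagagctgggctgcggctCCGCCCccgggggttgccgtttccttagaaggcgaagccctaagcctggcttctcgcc
Bbc3 (chr7:16309333-16309632, plus strand): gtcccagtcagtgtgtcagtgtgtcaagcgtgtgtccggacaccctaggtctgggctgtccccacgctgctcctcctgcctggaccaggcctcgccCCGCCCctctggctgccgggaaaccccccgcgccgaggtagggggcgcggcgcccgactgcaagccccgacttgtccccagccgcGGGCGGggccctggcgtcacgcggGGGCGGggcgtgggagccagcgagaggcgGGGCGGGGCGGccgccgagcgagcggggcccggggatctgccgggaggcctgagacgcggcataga
GGGCGG, searched on both strands, occurred 3 times in Bax, 0 times in Bak1, 1 time in Bok and 5 times in Bbc3, and in 35.7% of all 32851 promoters of the same length. The p53 decamer was in 8.36% of them and a pair of decamers up to 13 bases apart in 0.0731%, with no pair in any of the 4. These windows are short, and a match or its absence says nothing about what binds there. The other two entries of Bbc3 held 4 and 7 matches to GGGCGG. The Bbc3 window shown was the most GC-rich of the 4 at 76.0%, beside a median of 52.7% over all promoters.

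The call in kidney was a BH3-only gene. Bbc3, which encodes PUMA and binds all anti-apoptotic members, was at 6.00, 3.31, 4.10 and 3.23 CPM in young kidney, 7.85, 9.58 and 9.86 in vehicle and 5.65, 4.95 and 6.23 in ABT-737. Every vehicle library was above all others. The rise with age was 1.13 ± 0.29 (adjusted p = 0.0183), 2.18-fold, on 14 to 21 counts a vehicle library, and it missed the threshold without vehicle library 4 or 5 or young library 2 or 4 (adjusted p = 0.0503 to 0.0821). Bcl2l11 encodes BIM, which is raised when growth signals are withdrawn, and stood at 7.72, 11.3, 7.61 and 2.77 CPM in young and 15.7, 12.3 and 16.9 in vehicle kidney. It did not overlap between the groups, with a log2 fold change of 0.98 ± 0.32 and an adjusted p of 0.0540. Without young library 2, by DESeq2, or with the filter of at least 1 count it passed (adjusted p = 0.0301, 0.0489 and 0.0291), and without any other library or with the replicate number as a block it did not (adjusted p up to 0.175). Of the 10 members in kidney, 3 did not overlap, namely Bak1, Bbc3 and Bcl2l11, all higher in vehicle, as did 14.8% of all genes. Bbc3 among them passed the filter through old libraries, as given above. Kidney leukocyte sums were higher in vehicle, as given above, and red-cell genes summed to 1000.2 to 5862 CPM in young and 11610.3 to 11640 in vehicle kidney, with 6 of 6 called higher. Their part in the rise of Bbc3 was not tested. Bad, Bid, Bik, Bmf and Pmaip1 lay between -0.15 and 0.35 in kidney, with no call.

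In lung the member with the smallest p was Bid. Its protein is cut by caspase 8 or granzyme B and links death receptors and cytotoxic granules to mitochondria. Young lungs held 6.38, 6.95, 5.97 and 7.28 CPM, and vehicle lungs held 28.2, 4.29 and 37.4. Libraries 3 and 5 were far above all young lungs, and library 4 was below them. The log2 fold change was 1.80 ± 0.61 (adjusted p = 0.0656). It was 2.29 (adjusted p = 0.00573) without vehicle library 4, 1.66 (adjusted p = 0.149) without library 3 and 1.23 (adjusted p = 0.356) without library 5. With the replicate number as a block it was 1.01 (adjusted p = 0.559), and DESeq2 called it (adjusted p = 0.0355). Pmaip1 encodes NOXA, a BH3-only protein that binds MCL1, and was at 8.34, 7.65, 8.68 and 5.20 CPM in young and 18.1, 10.3 and 13.8 in vehicle lung, without overlap, at 0.90 ± 0.38 (adjusted p = 0.135). Bbc3 likewise did not overlap (8.84 to 16.7 against 16.8 to 33.3 CPM), at 0.86 ± 0.41 (adjusted p = 0.177). With Bax these were the 3 non-overlapping members of lung, all higher in vehicle, as were 15.1% of all genes. Bcl2l11 was at 19.5, 36.02 and 80.4 CPM in vehicle lung, the highest in library 5, whose leukocyte sum was also the highest. T cell genes (Cd3d, Cd3e, Cd3g, Cd8a, Lck and Thy1) summed to 129 to 159 CPM in young and 565 to 2450 in vehicle lung. The part of leukocytes in these lung values was not tested.

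High Bid and low Bad met in 3 lung libraries, a pattern chosen after the values were seen. BAD is held inactive by phosphorylation when growth factors are present. It was at 67.2, 75.1, 62.9 and 87.3 CPM in young lung, 24.8, 64.3 and 29.9 in vehicle and 86.9, 89.6 and 22.4 in ABT-737. The 3 lung libraries of 10 with the highest Bid (vehicle 3, vehicle 5 and ABT-737 5) were the 3 with the lowest Bad. Among the 4 young lungs the order was the same for both genes. The log2 fold change of Bad was -0.87 ± 0.43 with age (adjusted p = 0.19) and 0.71 ± 0.46 with ABT-737 (adjusted p = 0.462).

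**Figure D3:**
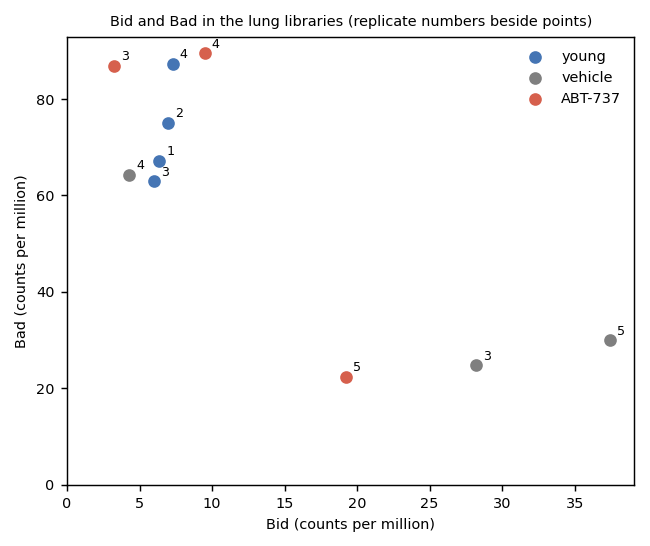
Bid (horizontal axis) against Bad (vertical axis), both in CPM, for the 10 lung libraries, coloured by group and numbered by replicate. Vehicle 3, vehicle 5 and ABT-737 5 lie at the lower right with 19.2 CPM or more of Bid and 29.9 CPM or less of Bad, and the other 7 lie at the upper left.

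In skin, Bcl2l11 was at 6.51, 8.06 and 5.46 CPM in young and 13.6, 8.54 and 15.4 in vehicle, the only member without overlap, against 19.5% of all genes higher without overlap. Its log2 fold change was 0.91 ± 0.33 (adjusted p = 0.0938). Pmaip1 had 2 counts in each young skin library, under the floor of 3 counts used here. Against that floor vehicle skin averaged at least 3.28-fold higher, which rested on library 5 with 51 counts and 14.1 CPM, while libraries 3 and 4 were at 1.76 and 1.42 CPM (adjusted p = 0.149). Macrophage genes summed to 203 to 639 CPM in young and 1352 to 3238 in vehicle skin, and 6 neutrophil genes reached 323 CPM in a vehicle library against 1.36 at most in young skin. Their part in the skin values was not tested.

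**Figure D4:**
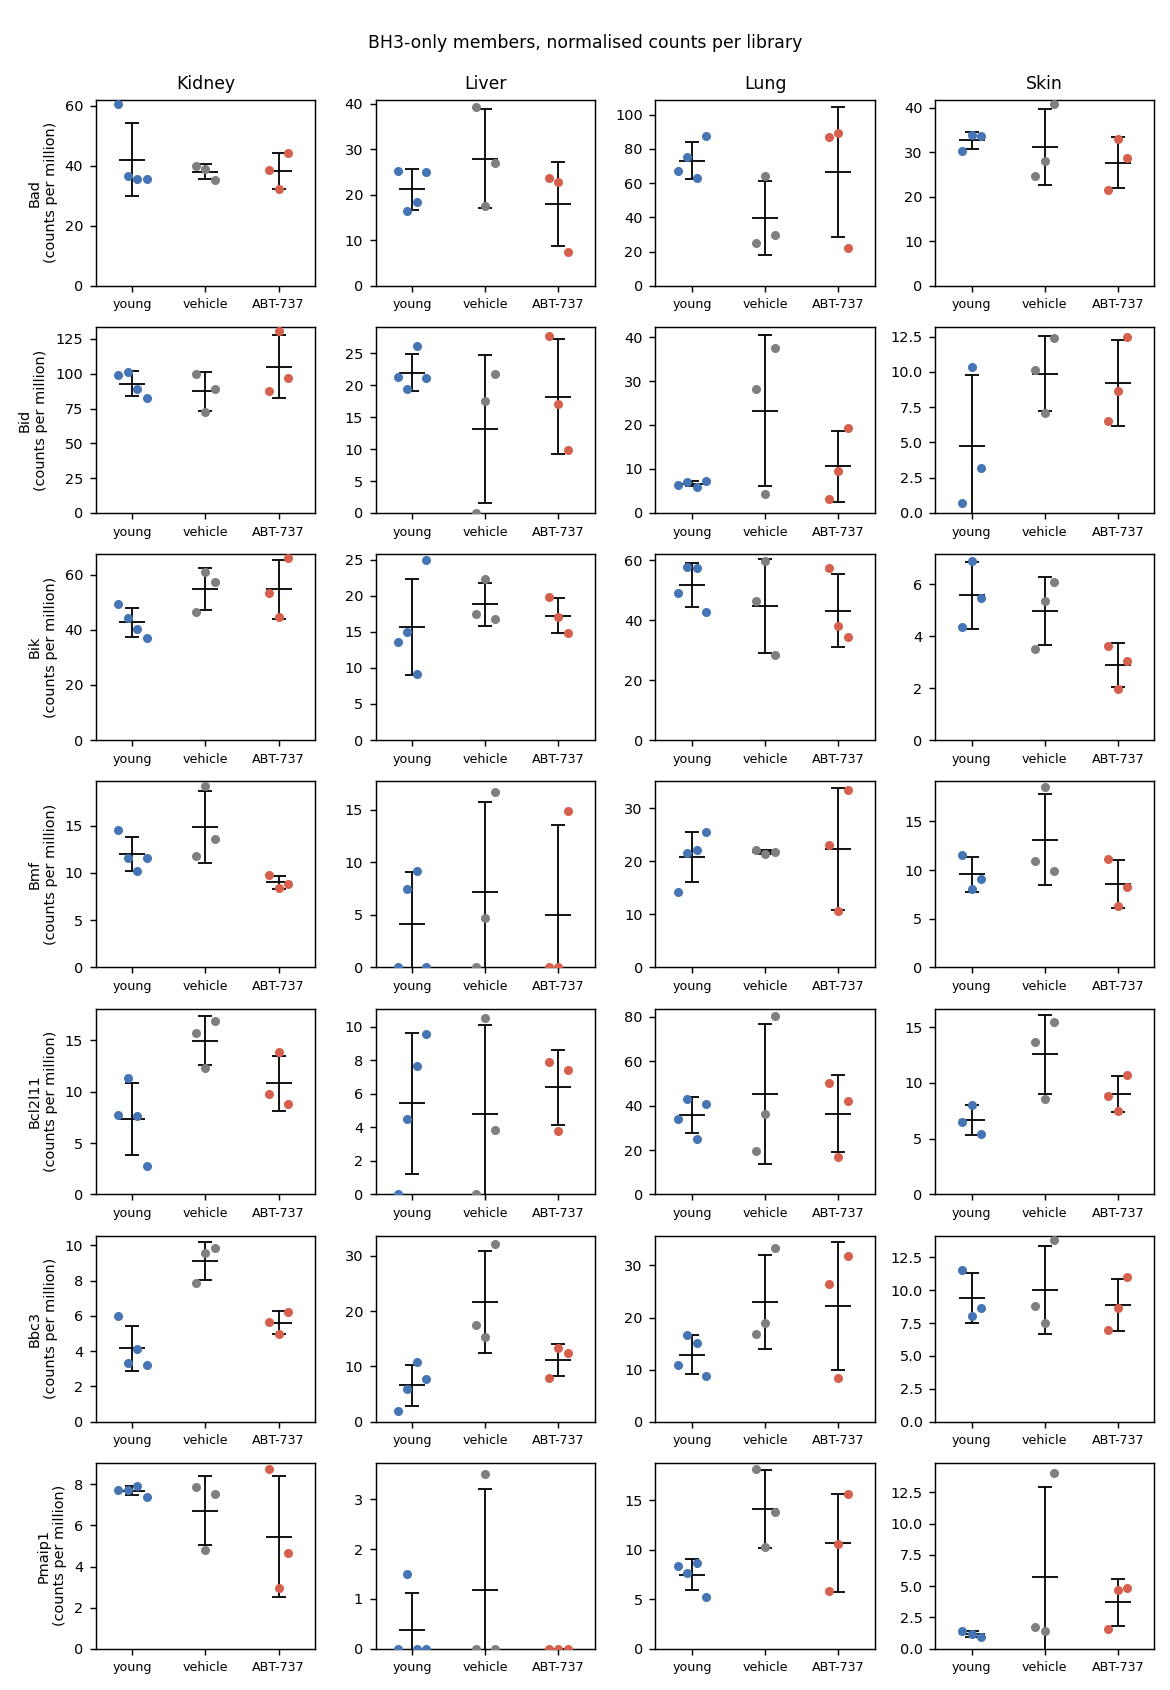
The 7 BH3-only members (rows) in CPM for each library (points) of kidney, liver, lung and skin (columns) by group, with mean ± SD as black bars (n = 3 or 4 libraries a group). Bbc3 in vehicle kidney lies above both other groups, and Bid in vehicle lung spans 4.29 to 37.4 CPM.

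The remaining BH3-only genes of liver, 4 in number, were too sparse to test. Counts of Bbc3 were 1 to 7 (young), 4 to 25 (vehicle) and 2 to 7 (ABT-737), or 1.94 to 10.8, 15.2 to 32.1 and 7.93 to 13.3 CPM, so that each vehicle library lay above all others. For Bcl2l11 the counts were 0 to 5, 0 to 9 and 2 to 3, and for Bmf 0 to 6, 0 to 13 and 0 to 6. Pmaip1 gave 1 count among the 4 young livers, 3 counts in 1 vehicle liver and none in ABT-737 liver. At a median total of 547867 counts, 3 counts a library come to 5.16 CPM in young, 6.82 in vehicle and 8.34 in ABT-737 liver, so lower levels were not detectable at this depth. Bad, Bid and Bik were tested in liver and lay at 0.26 ± 0.38, -0.42 ± 0.44 and 0.32 ± 0.37 with age, and vehicle library 3 had 0 counts of Bid.

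ABT-737 against vehicle was the comparison the treatment was made for. No member passed in any tissue by edgeR, where 1.35% (kidney), 3.85% (liver), 0% (lung) and 0% (skin) of genes were called. At an unadjusted p under 0.05 there were 3 of 10 members (kidney), 1 of 6 (liver), 1 of 10 (lung) and 0 of 10 (skin), all lower with ABT-737, beside 14.8%, 16.1%, 16.1% and 7.97% of all genes in either direction. DESeq2 called 1 member, Bax in lung, and 0 in the other tissues. The median log2 fold change of the members was -0.35 (kidney), -0.39 (liver), -0.18 (lung) and -0.19 (skin), beside 0.01, -0.03, 0.04 and 0.04 for all genes. Above zero lay 3 of 10, 1 of 6, 3 of 10 and 2 of 10 members in the same order, against 51.2%, 47.1%, 52.8% and 55.1% of all genes. The members share the vehicle libraries with the age comparison, so the values of both are given side by side and not as separate evidence.

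Bak1 had the largest differences of the effectors in kidney and liver. Kidney ABT-737 libraries were at 11.3, 7.92 and 23.9 CPM against 31.0, 31.5 and 22.1 in vehicle, a log2 fold change of -0.97 ± 0.31 (adjusted p = 0.148). The groups overlapped through ABT-737 library 5, without which the value was -1.54 and passed (adjusted p = 0.0139). Without ABT-737 library 4 it was -0.67 (adjusted p = 0.357), and the adjusted p reached 0.399 without vehicle library 4. In liver, where the values are given above and the groups did not overlap, it was -1.19 ± 0.44 (adjusted p = 0.169). In lung it was -0.53 ± 0.35 and in skin 0.07 ± 0.48. Lung Bax stood at 75.4, 86.4 and 93.5 CPM with ABT-737 against 142, 129 and 204 with vehicle, a difference of -0.90 ± 0.26 with an adjusted p of 0.134 (0.0430 by DESeq2). The 3 ABT-737 lungs were also all below the 4 young lungs. Bax had -0.35 ± 0.26 in kidney, -0.44 ± 0.36 in liver and 0.05 ± 0.43 in skin, and Bok lay between -0.35 and 0.13 in the 4 tissues. Leukocyte sums were lower with ABT-737 in kidney, liver and skin, without overlap, and overlapped in lung. Macrophage and monocyte sums were lower without overlap in skin, at 515 to 1118 CPM against 1352 to 3238 with vehicle. In lung they overlapped, at 1349 to 3463 against 2690 to 5432, while T cell sums were lower, at 166 to 417 CPM against 565 to 2450, without overlap. Their part was not tested.

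Among BH3-only genes, kidney Bmf was at 9.76, 8.41 and 8.83 CPM with ABT-737 and 11.8, 19.2 and 13.6 with vehicle. BMF is bound to the actin-myosin motor in adherent cells. The groups did not overlap and the log2 fold change was -0.68 ± 0.27 (adjusted p = 0.244). Kidney Bbc3, also without overlap, was -0.68 ± 0.32 (adjusted p = 0.333), with values as above. Groups that did not overlap, lower with ABT-737, were found for 2 of 10 members (kidney), 1 of 6 (liver), 1 of 10 (lung) and 0 of 10 (skin), against 8.47%, 9.67%, 6.63% and 5.81% of all genes. Lung Bid was -1.07 ± 0.64 (adjusted p = 0.426), with ABT-737 lungs at 3.22, 9.48 and 19.2 CPM. Skin Bik was -0.77 ± 0.38 and skin Pmaip1 -0.72 ± 0.80. Kidney Bid (0.26 ± 0.18) and kidney Bad (0.01 ± 0.22) were at or above their vehicle means.

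ABT-737 old mice against young mice gave 1 call over the 4 tissues. Bok in liver was at 47.6, 30.3 and 9.90 CPM with ABT-737, against 4.61 to 11.9 in young, a log2 fold change of 1.67 ± 0.48 (adjusted p = 0.0414) where 8.4% of genes were called. ABT-737 library 5 overlapped the young range, and the call was lost without ABT-737 library 3 or 4 or any 1 of the young libraries (adjusted p = 0.0564 to 0.178). Bok passed the filter through old libraries, and with the young and ABT-737 libraries alone it was not tested. The other 5 liver members were not called, with Bak1 at 0.51 ± 0.49 and Bax at 0.56 ± 0.35. None of 10 was called by edgeR or DESeq2 in kidney, lung or skin, where 2.12%, 2.55% and 5.17% of genes were, and 0, 0 and 1 had an unadjusted p under 0.05, beside 16.7%, 20.5% and 30% of genes. The last was skin Bik, at 3.63, 1.96 and 3.05 CPM with ABT-737 and 4.34, 6.91 and 5.46 in young (log2 fold change -0.93 ± 0.39, adjusted p = 0.152). BIK resides on the endoplasmic reticulum.

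Whether the age response differed between tissues was tested in a joint fit of kidney, liver and lung. For Bid the log2 change from young to vehicle was 1.90 ± 0.59 smaller in kidney than in lung, that is -1.90 for kidney minus lung (adjusted p = 0.0399, 8.04% of genes called), and it was 2.20 ± 0.72 larger in lung than in liver (adjusted p = 0.0433, 11.4% of genes called). Both rest on lung vehicle libraries 3 and 5. Each lost its call in 12 of the 14 fits that left out 1 library, with adjusted p of 0.0560 to 0.265 and 0.0560 to 0.192. For Bok the change in lung was below that in liver, at -2.04 ± 0.53 (adjusted p = 0.0105), and this held in all 14 such fits but not with the replicate number as a block (-2.21, adjusted p = 0.109). Kidney minus liver gave no call (0.786% of genes), with Bok at -1.76 ± 0.51 (adjusted p = 0.102) and unadjusted p under 0.05 for 2 members, Bok and Bax, beside 11.4% of genes. DESeq2 also called none there. The response to ABT-737 differed for 0 members between any pair of the 3 tissues by edgeR or DESeq2 (0.0839%, 0% and 0.29% of genes called for kidney minus liver, kidney minus lung and lung minus liver), with 1 unadjusted p under 0.05 among them, Bid for kidney minus lung (1.32 ± 0.61, adjusted p = 0.515).

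The young mice give the resting pattern of the family over 3 tissues, free of age and injection. CPM here come from a fit of the 12 young libraries of kidney, liver and lung, and skin, counted in another table, is not set against them. Of the 10 members, 6 were called for kidney against liver, 7 for kidney against lung and 8 for lung against liver, where 51.5%, 74.7% and 69.4% of all genes were. Bid differed most between kidney and lung. Kidney held 87.4, 91.6, 79.6 and 73.1 CPM, liver 29.1, 27.2, 36.5 and 28.7, and lung 5.09, 5.57, 4.76 and 5.86. No tissues overlapped, and each step passed, with 1.44 ± 0.19 for kidney over liver (adjusted p = 1.89e-07) and -2.51 ± 0.27 for lung against liver (adjusted p = 2.3e-09). Kidney was 15.5-fold above lung.

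Bok ran in the order kidney, lung, liver. Kidney held 47.7, 52.5, 42.5 and 45.3 CPM, lung 22.3, 14.5, 12.1 and 9.62, and liver 10.6, 16.8, 6.44 and 13.05. Kidney stood apart (1.67 ± 0.20 over lung, adjusted p = 8.9e-09), and lung and liver did not differ beyond their spread (0.33 ± 0.37). Bcl2l11 was highest in lung, at 27.0, 34.5, 19.9 and 32.6 CPM, with liver at 0, 6.28, 10.7 and 13.05 and kidney at 6.81, 10.2, 6.83 and 2.45. Lung exceeded liver by 1.89 ± 0.45 (adjusted p = 0.000557), and liver and kidney overlapped (-0.14 ± 0.55 for kidney against liver). Bbc3 was lowest in kidney, at 5.30, 2.99, 3.68 and 2.86 CPM. Lung held 8.61, 13.4, 12.1 and 7.11 and liver 2.65, 8.38, 15.03 and 10.4, and that pair was not told apart (0.11 ± 0.42). Kidney was below lung by -1.46 ± 0.30 (adjusted p = 7.92e-05), and its difference from liver, -1.34 ± 0.48 (adjusted p = 0.02), was lost without liver library 3 or 4 (adjusted p = 0.188 and 0.0584).

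Bak1 was at 24.3 to 36.4 CPM in lung, 8.59 to 23.0 in liver and 12.7 to 17.6 in kidney. It was higher in lung than in liver (0.90 ± 0.29, adjusted p = 0.00806), a call lost without liver library 3 (adjusted p = 0.0590), and kidney and liver overlapped (-0.13 ± 0.32). Bax was close in kidney (87.7 to 100.3 CPM) and lung (76.3 to 97.9), at 0.12 ± 0.13, and lower in liver (47.6 to 75.4). The lung-liver step of 0.50 ± 0.18 (adjusted p = 0.0135) was lost without liver library 1 or 3 or lung library 2 (adjusted p = 0.0574 to 0.0671). Bik showed the same order, with kidney (32.7 to 43.5) and lung (34.3 to 46.2) not apart (-0.11 ± 0.16) and liver at 12.9 to 33.9 (0.84 ± 0.25 for kidney over liver, adjusted p = 0.00643). Bad was highest in lung (50.2 to 70.3 CPM), then kidney (31.4 to 53.4) and liver (23.0 to 34.4). Lung exceeded liver by 1.02 ± 0.25 (adjusted p = 0.000554), and kidney and liver did not separate (0.37 ± 0.25). Bmf was at 11.4 to 20.5 CPM in lung, 9.19 to 12.9 in kidney and 0 to 12.9 in liver. Its call for kidney against lung (-0.65 ± 0.26, adjusted p = 0.0253) was lost without any 1 of 5 libraries (kidney 2, 3 or 4, lung 3 or 4; adjusted p = 0.0508 to 0.0821), and that for lung against liver (1.36 ± 0.48, adjusted p = 0.0139) without liver library 1 or 4 (adjusted p = 0.0641 and 0.0669).

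Pmaip1 gave 16 to 28 counts in each young kidney and 10 to 17 in each young lung, or 6.53 to 7.09 and 4.18 to 6.93 CPM, and 0 or 1 count in young liver. Both differences from liver were called, but 3 counts in these liver libraries average 7.12 CPM, above the means of kidney and lung, so no fold is given. Kidney and lung did not differ beyond their spread (0.20 ± 0.27). CPM of a library share a total, and the median of all genes lay at 0.34 for kidney over liver and 0.33 for lung over liver. With size factors of DESeq2 those for kidney moved by -0.13 against liver and -0.17 against lung, and no call of a member changed.

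**Figure D5:**
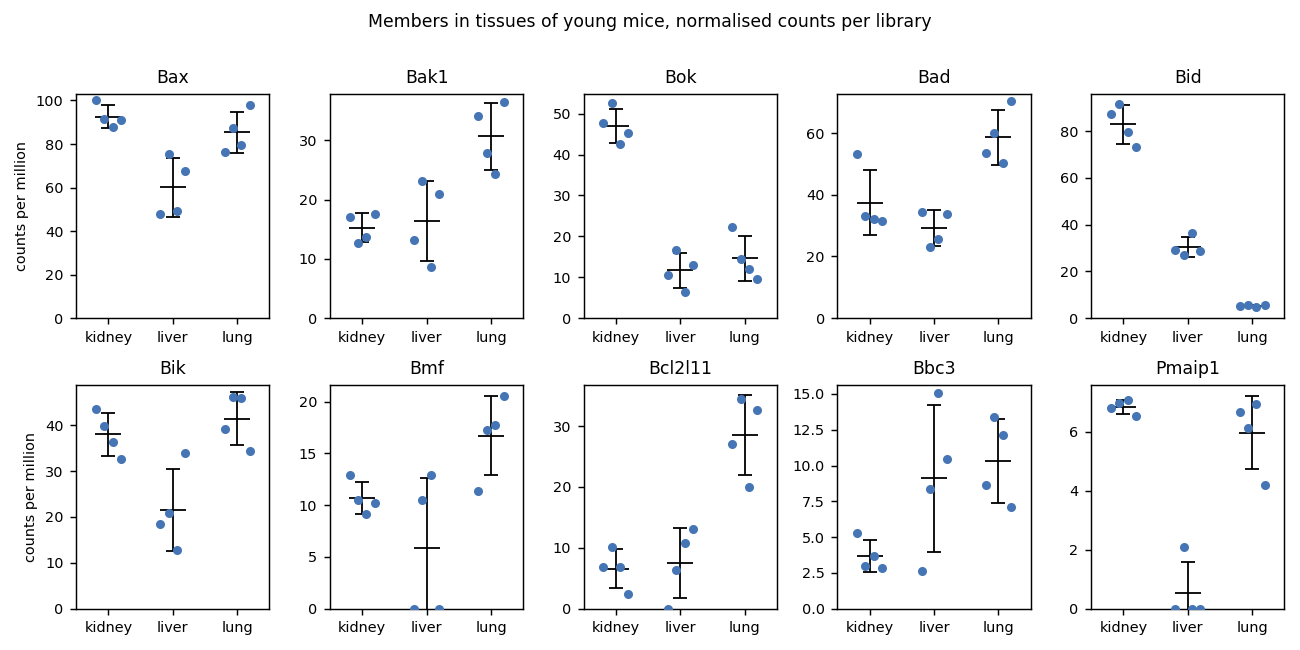
The 10 members in CPM for each young library (points) of kidney, liver and lung, with mean ± SD as black bars (n = 4 libraries a tissue). Bid falls from kidney through liver to lung, Bok is highest in kidney, Bcl2l11 is highest in lung, and Pmaip1 is at 0 to 2.09 CPM in liver.

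The rest of the pathway was counted from lists chosen with earlier results of these data known. Of the anti-apoptotic genes that oppose the members, 2 of 4 tested rose with age in kidney, 2 of 3 in liver and 4 of 7 in lung, and none of 4 was called in skin by edgeR. None was called lower. Of all genes, 13.3% (kidney), 22.6% (liver), 12.9% (lung) and 11.2% (skin) were called with age in either direction. Counts with age of this and the later lists stand beside these shares. Bcl2 went from 36.6 ± 6.23 to 66.1 ± 9.66 CPM in kidney (SD, n = 4 and 3; log2 fold change 0.85 ± 0.18, adjusted p = 0.00568) and from 3.66 ± 5.35 to 35.5 ± 10.9 in liver (3.36 ± 0.61, adjusted p = 0.00104). Young livers ran from 0 to 11.6 CPM of Bcl2, so the liver fold is not exact. Bcl2l1, which encodes BCL-XL, rose by 0.64 ± 0.14 in kidney (adjusted p = 0.00636) and 1.06 ± 0.29 in liver (adjusted p = 0.0146). In lung the 4 were Bcl2 and the A1 genes Bcl2a1a, Bcl2a1b and Bcl2a1d, which leukocytes express and whose near-identical copies share reads. The A1 calls are thus not separate from each other. Bcl2 in vehicle lung ran from 63.0 to 432 CPM. With ABT-737 against vehicle none of these was called in any tissue by edgeR, where 1.35% (kidney), 3.85% (liver), 0% (lung) and 0% (skin) of all genes were.

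Of the proteases that cut BID, lung Gzmb rose from 3.15 ± 1.60 to 91.3 ± 83.5 CPM with age (log2 fold change 4.82 ± 0.88, adjusted p = 0.00443), with vehicle libraries between 14.6 and 180.3. Its granzyme enters target cells through perforin pores, and every library here carried the Prf1-/- genotype. Casp8, the other protease, rose by 0.98 ± 0.31 (adjusted p = 0.0476). Fasl (4.53 ± 1.16, adjusted p = 0.0212) and Tnf (3.63 ± 0.73, adjusted p = 0.00683), the death ligands, rose in lung too. Young lungs held 0 to 1.04 CPM of Fasl and 0.98 to 1.39 of Tnf, under the floor of 3 counts, so neither fold is exact. Vehicle lungs ran from 0.43 to 34.0 CPM of Fasl, the lowest within the young range, and from 5.15 to 28.8 of Tnf. T cell markers rose in the same comparison, 6 of 6 called with a median of 4.09, and their part in these values was not tested. Of the death receptor list, 3 of 11 rose there, 1 of 7 in kidney and 1 of 5 in liver (both Tnfrsf1a) and 1 of 6 in skin (Fadd). Downstream of the effectors, 0 of 14 genes of the caspase and apoptosome list were called with age in kidney by edgeR. In liver 2 of 8 rose (Xiap and Endog) and 2 fell. The ones that fell were Cycs, the cytochrome c that BAX and BAK1 release (-1.25 ± 0.35, adjusted p = 0.0177), and Casp6 (-1.43 ± 0.37, adjusted p = 0.0117). In lung Birc5 and Birc2, of the inhibitor of apoptosis family, rose and Xiap fell. Birc5 is also one of the 6 proliferating-cell markers, of which 5 were called higher in lung and which summed to 27.7 to 40.3 CPM in young and 145 to 171 in vehicle. In skin 1 of 16 rose (Casp6) and 2 fell (Endog and Aifm1), where the skeletal muscle sum was lower in vehicle without overlap, as given above. The part of these markers was not tested.

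Among partners, Vdac2, the channel protein that holds BAK1 at mitochondria, fell with age in kidney from 296 ± 32.1 to 166 ± 25.3 CPM (-0.83 ± 0.16, adjusted p = 0.00268) and in liver (-1.28 ± 0.38, adjusted p = 0.0236), where a vehicle library had none. In old ABT-737 livers it was also below young (-1.61 ± 0.42, adjusted p = 0.0275), as were 3 of the 14-3-3 genes, whose proteins hold BAD in the cytosol (Ywhaz, Ywhae and Ywhab), while 2 of the 13 partners tested were higher there. In skin Ywhab went the other way, at 1.30 ± 0.26 with age (adjusted p = 0.0208) and 1.501 ± 0.266 for ABT-737 against young (adjusted p = 0.0241). With age, 0 of 16 partners tested rose in kidney and 2 fell, 2 of 13 in liver rose and 2 fell, 1 of 17 in lung rose and 2 of 16 in skin rose and 1 fell. Of the p53 list, 3 of 12 rose in kidney (Sesn2, Cdkn1a and Gadd45a), 1 of 5 in liver (Cdkn1a), 0 of 14 in lung by edgeR and 1 of 12 in skin (Zmat3), and none was called lower. Cdkn1a, the cell-cycle inhibitor p21, rose from 4.94 ± 1.71 to 313 ± 214 CPM in liver (5.86 ± 0.62, adjusted p = 1.69e-05) and from 29.0 ± 3.57 to 121 ± 57.0 in kidney (2.04 ± 0.24, adjusted p = 4.38e-05). Vehicle livers ran from 66.8 to 453 CPM. Young livers ran from 3.84 to 7.45, around the 5.16 CPM of 3 counts, so folds against them are not exact. In ABT-737 against young Cdkn1a was also higher in liver (6.03 ± 0.62, adjusted p = 7.13e-05) and kidney (1.37 ± 0.25, adjusted p = 0.00811). It was the 1 call of the p53 list in each of these, and lung and skin had 0. Of all genes, 8.4% (liver), 2.12% (kidney), 2.55% (lung) and 5.17% (skin) were called in ABT-737 against young. Myc rose in kidney and lung, 1 of 9 and 1 of 10 tested among the other transcription factors that act on the members. The median log2 fold change with age, in the order kidney, liver, lung, skin and beside the values near 0 of all genes given above, was 0.48, 1.06, 1.62 and -0.10 for the anti-apoptotic genes. It was 0.05, 0.02, 0.35 and 0.06 for the caspase list and 0.18, -0.08, 0.37 and 0.42 for the death receptor list. Partners had -0.05, -0.11, 0.11 and 0.14, p53 targets 0.21, 0.02, 0.20 and 0.07, and the other transcription factors 0.24, 0.19, -0.29 and -0.04. A last list of other BH3 or BCL-2-like genes had 0 calls with age in any tissue by edgeR and medians of -0.19, -0.92, 0.17 and 0.02. ABT-737 against vehicle gave no call in any of the 7 lists in any tissue by edgeR. Of all genes, 1.35% (kidney), 3.85% (liver), 0% (lung) and 0% (skin) were called there, so in lung and skin no list could hold a call.

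Over the 9 combinations of tissue and group in kidney, liver and lung, the genes whose mean log2 levels were most like a member's were named as a description. The points share libraries, depth and tissue, and each value is the highest over all genes of the table. Closest to Bak1 was Siglec1 (Pearson r = 0.966), a macrophage receptor, and closest to Bok was Actn4 (r = 0.976). Bid was followed by Dalrd3 (r = 0.989), Bcl2l11 by Nos3 (r = 0.976), the endothelial nitric oxide synthase, and Bbc3 by Grb2 (r = 0.972). Pmaip1 was nearest to Tnfsf10 (r = 0.995), the ligand TRAIL, and Bax to Usb1 (r = 0.949). For Bad, Bik and Bmf the nearest were Zer1, Ezh1 and Pck2, at r of 0.969, 0.988 and 0.994.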

How the data were processed

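Bulk MARS-seq libraries (3′ ends) of kidney, liver, lung and skin were deposited by the authors as read counts per gene, not normalized, with skin in a table of its own and the other tissues together. The submitters' processing notes name bcl2fastq, HISAT 0.1.5, HOMER and the build mm10. Collapsing of molecular identifiers and the strand setting are not given in the sources used here. Gene windows of the skin table run about 2000 bases past the GENCODE M21 ends, so levels were not compared between the tables, and 0 columns belonged to other series.

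Members and lists were chosen with earlier results of these data known. Counts were fitted for each tissue with edgeR 4.0.16 (R 4.3.3, limma 3.58.1) after filterByExpr and TMM, all groups of a tissue together, with the two-sided quasi-likelihood F test and Benjamini-Hochberg adjustment over all genes tested, called at an adjusted p under 0.05. Genes tested numbered 11123 (kidney), 5583 (liver), 11949 (lung), 14224 (skin), 11867 (young kidney, liver and lung) and 13107 (differences between tissues, 30 libraries). CPM use TMM library sizes, errors of fold changes are SE and those of levels SD. A count of 0 to 3 was read against a floor of 3 counts per library, which covers counting error only. Functions were tested on simulated data.

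Alternatives were DESeq2 1.42.0, its size factors in edgeR, a filter of at least 1 count or of at least 10 counts in every library, the compared groups alone, the replicate number as a block, and leaving out each library. Young and old mice are different animals, so in age comparisons the block has no known pairing behind it. Same-numbered vehicle and ABT-737 libraries deviated together in lung (r = 0.176, 0.296 and 0.427 for numbers 3, 4 and 5) and not in every pair of another tissue. No libraries were near-duplicates (lowest chi-square per degree of freedom 2.40). Members with an unadjusted p under 0.05 were given by library. A listed gene was named only where called, at most 4 per list and comparison, and not every called gene was named. A result of the caspase list in lung is not reported here. Likeness used log2(CPM + 1). BH3 stretches came from GENCODE M21 and promoters from RefSeq (GRCm38.p6), where 9 and 4 members are shown.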

Additional observations from a re-analysis of the deposited data

Results flagged for a closer look

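In young kidney, Bad was at 60.5 CPM in library 1 against 35.5 to 36.7 in the other three, and that gap is 0.955 of the range of the group, above Dixon's 95% critical value for 4 samples. It was the 1 such case among 29 groups examined, and chance gives about 1 in 20.

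The change of Bid with age differed between tissues by the edgeR test of the difference, at -1.90 on the log2 scale for kidney minus lung (adjusted p = 0.0399) and 2.20 for lung minus liver (adjusted p = 0.0433). That of Bok differed at -2.04 for lung minus liver (adjusted p = 0.0105).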

How the results depend on the processing

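With vehicle against young, the count of members called in kidney went from 1 to 2 with DESeq2, with the filter of at least 1 count and with only the compared groups. It went to 0 with at least 10 counts in every library, where Bbc3 was not tested, and with the replicate block (0 to 1 without 1 library). In liver it went from 3 to 1 with the block (2 to 3 without 1 library), and in lung from 0 to 1 with DESeq2, at least 1 count or the compared groups alone (0 to 2 without 1 library). ABT-737 against young in liver gave 0 in place of 1 with the compared groups alone, where Bok failed the filter and was not tested, and with the block (0 to 1 without 1 library). In lung it gave 0 to 1 without 1 library. ABT-737 against vehicle gave 1 in lung with DESeq2, and 0 to 1 without 1 library in kidney. In young tissues, at least 10 counts in every library left 2, 3 and 3 called in place of 6, 7 and 8 (kidney against liver, kidney against lung, lung against liver), because fewer members were tested. Of the differences between tissues, kidney minus lung fell from 1 to 0 and lung minus liver from 2 to 0 with the block, and they ran from 0 to 1 and from 1 to 3 without 1 library. Causes of the other changes were not tested. The filter of at least 10 counts left no member in liver or in the joint fit. Of the single-gene values, 43 of 47 kept their side of the threshold with DESeq2, 47 of 47 with its size factors, 44 of 47 with at least 1 count, 32 of 34 with the compared groups, 37 of 44 with the block and 340 of 396 without 1 library, and no direction turned. In lung alone every same-numbered vehicle and ABT-737 pair correlated positively, but number 4 correlated better with another library, so pairing is not established. There the block changed no call of a member with ABT-737 against vehicle. Elsewhere the correlations were -0.177, -0.211 and 0.021 (kidney), -0.024, 0.161 and -0.035 (liver) and -0.571, -0.575 and 0.273 (skin). The block was not fitted for age in skin, where young and old libraries share a single number. Depth limits liver most.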
